A study of Homo sapiens with 12 samples.

Results

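The genes described here encode the parts of the proteasome. The rule for members uses names only: every gene of the table whose symbol is PSMA, PSMB, PSMC, PSMD, PSME, PSMF or PSMG followed by a number, apart from the inducible subunits PSMB8 and PSMB9. This gave 46 of 26475 genes. The family itself was picked for description with earlier results of these data known. By textbook role they comprise 8 genes of the alpha ring and 9 of the beta ring of the 20S core, 9 of the base and 8 of the lid of the 19S cap, 4 activators (PSME1 to PSME4), 1 inhibitor (PSMF1) and 7 assembly chaperones (PSMG1 to PSMG4, PSMD5, PSMD9 and PSMD10).

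The proteasome is the protease complex that degrades most short-lived and damaged proteins in the cytosol and nucleus, usually after they have been tagged with ubiquitin. Its 20S core is a barrel of stacked rings in which the beta rings carry the cutting sites and the alpha rings guard the entrance. The 19S cap recognises tagged proteins and opens the gate: its base holds a ring of ATPases that unfold and thread the substrate, and its lid holds the enzyme that removes ubiquitin. Activators can take the place of the 19S cap, and the PSME1 and PSME2 pair, which interferon induces together with the inducible beta subunits, favours peptides for antigen presentation.

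RNA was measured in A375, a BRAF-mutant human melanoma line, after 24 h in 4 conditions: the solvent DMSO, 1 µM XL413, 1 µM GSK343, or GSK343 and XL413 together at 1 µM each. XL413 inhibits CDC7, a kinase that fires replication origins, and GSK343 inhibits EZH2, the histone methyltransferase of a Polycomb complex. Each condition had 3 libraries, described by the submitters as biological replicates, made from poly-A RNA with a strand-specific protocol. All results are from 1 cell line, 1 dose and 1 time, the p-values cover only the spread between these libraries, and in bulk RNA a change in the make-up of the culture and a change of RNA per cell cannot be told apart.

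The libraries held 31553205 to 39079931 estimated reads. The melanocyte-lineage genes SOX10 and CSPG4 stood at means of 332 and 347 CPM (reads scaled to a common library size), while the pigment genes TYR, MLANA, DCT, TYRP1 and PMEL were at or below 0.69 CPM and the leukocyte genes CD3E, PTPRC and CD14 at 0.00707, 0.031 and 0.345 CPM. Among epithelial markers KRT18 was at 562 CPM, and EPCAM, CDH1 and KRT19 at 0.127, 0.05 and 0.25. The fibroblast markers COL1A1, PDGFRB, DCN and LUM stood at 88.6, 13.1, 7.5 and 4.3 CPM. Some summed marker levels moved with treatment. For 3 markers of an undifferentiated melanoma state the sum was 564 to 576 CPM in DMSO and 493 to 554 in GSK343. It was 448 to 484 in XL413 and 407 to 443 in the combination. For 9 melanoma and melanocyte markers it was 762 to 798 in DMSO, 743 to 802 in XL413 and 725 to 775 in GSK343. In the combination it was 625 to 725. The sum of 4 epithelial markers, mostly KRT18, was 580 to 607 in DMSO and 566 to 594 in XL413. It was 520 to 534 in GSK343 and 529 to 583 in the combination. The part of these shifts in the results below was not tested. One library stood apart: in replicate 2 of the combination, the SD over genes of the deviation from the group was 0.249 on the log2 scale, against 0.0954 to 0.155 in the other libraries. Its deviations also ran against transcript length, with a Spearman correlation across genes of -0.684, where the other libraries ran from -0.497 to 0.615. The proteasome genes are short, with a median longest transcript of 1630.5 nucleotides against 3311 for all tested genes that have a length, so values without this library are given beside the results it moves most.

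Of the 46 genes, 44 had enough reads to be tested. The other two belong to specialised proteasomes. PSMA8, an alpha subunit of the testis proteasome, had 0 reads in all 12 libraries, and PSMB11, the beta subunit of the thymus proteasome, had 1 read in XL413 replicate 3, 2 reads in replicate 1 of the combination and 0 elsewhere. PSMB10, which replaces PSMB7 in the immunoproteasome, also met the naming rule and was expressed at the lowest level of the tested ring subunits.

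In the DMSO libraries, levels per kilobase of transcript (CPM per kb, using the median length of each gene's protein-coding transcripts) were similar between the core and the cap. The median was 206 CPM per kb in the alpha ring, 189 in the beta ring, 194 in the base and 137 in the lid. Activators had a median of 102 CPM per kb, the chaperones 39.7 and the inhibitor PSMF1 33.1. In a complex built with equal numbers of each ring subunit, the transcripts were far from equal: the alpha ring ran from 83.1 CPM per kb for PSMA5 to 721 for PSMA7, and the beta ring from 20.2 for PSMB10, or 91.5 for PSMB2 among the constitutive subunits, to 623 for PSMB4. The base ran from 53.3 CPM per kb for the ATPase PSMC6 to 314 for the ubiquitin receptor PSMD4. The lid spanned 4.21-fold, from 56.3 for PSMD12 to 237 for PSMD7, the partner of the deubiquitinating enzyme. Among activators PSME3 and PSME2 both stood at 125 CPM per kb and PSME4 at 20.6, and among chaperones PSMD10 was highest at 85.8. These ranks depend on the transcript assumed: with its longest transcript instead, PSMA4 moves from 370 to 79.1 CPM per kb.

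Neither compound alone produced a called change in any of the 44 tested genes, and the combination did so in 6, by small amounts. Genes were called at an adjusted p under 0.05 in edgeR's quasi-likelihood test over all 15443 tested genes. With XL413 alone, 0 of 44 were called higher and 0 lower, where 0.278% of all tested genes were called higher and 0.149% lower; 6 had an unadjusted p under 0.05 (13.6%, against 13.7% of all tested genes), and DESeq2, which called 0.803% of all genes higher and 0.784% lower, called PSME2 higher and PSMD11 lower. With GSK343 alone the counts were 0 and 0, against 0.725% higher and 0.44% lower among all tested genes; 6 again had an unadjusted p under 0.05 (13.6%, against 14.3% of all tested genes), and DESeq2 called 0, against 169 higher and 169 lower among all genes. With both compounds, PSME1, PSME2 and PSMA4 rose and PSME3, PSMD11 and PSMD2 fell, so 3 of 44 were called higher and 3 lower, where 6.69% of all tested genes were called higher and 7.25% lower. In this fit the share of the proteasome genes called with the combination was near that of all genes, which was 13.9% in either direction. By the same test, 17 of the 44 had an unadjusted p under 0.05 with both compounds (38.6%, against 30.4% of all tested genes). All 3 comparisons use the same DMSO libraries, and so are not independent of each other. When the fit held only the DMSO and combination libraries, PSME3 alone of the 6 was still called (adjusted p = 0.0456).

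The size of the changes was small throughout. The 95% intervals of all 44 genes (8 residual degrees of freedom) lay between -0.25 and 0.34 on the log2 scale for XL413, between -0.25 and 0.29 for GSK343, and between -0.26 and 0.43 for the combination. The median standard error (SE) was 0.048 in each of the 3. The 95% intervals given here are wider than the edgeR test implies. For PSMD12 with XL413 the interval was -0.16 to 0.0003, although the unadjusted p by edgeR was 0.0386.

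Most of these counts were larger when replicate 2 of the combination was left out. XL413 alone then had 2 genes higher (PSME1 and PSME2) and 2 lower (PSMC4 and PSMD11), where 2.27% and 2.59% of all genes were called. GSK343 alone had 2 lower (PSMD2 and PSMD3), where 3.59% were. The combination had 2 higher (PSME1 and PSME2), where 6.72% were, and 6 lower (PSMC3, PSMC4, PSMD2, PSMD11, PSMD12 and PSME3), where 8.26% were. PSMA4 was no longer among them. Without other single libraries the calls with the combination also moved: 1 was higher without DMSO replicate 1, where 3.61% of all genes were, and 0 without DMSO replicate 2 or 3, where 2.27% and 2.96% were. Without replicate 3 of the combination 7 were higher, where 7.32% of all genes were.

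**Figure D1:**
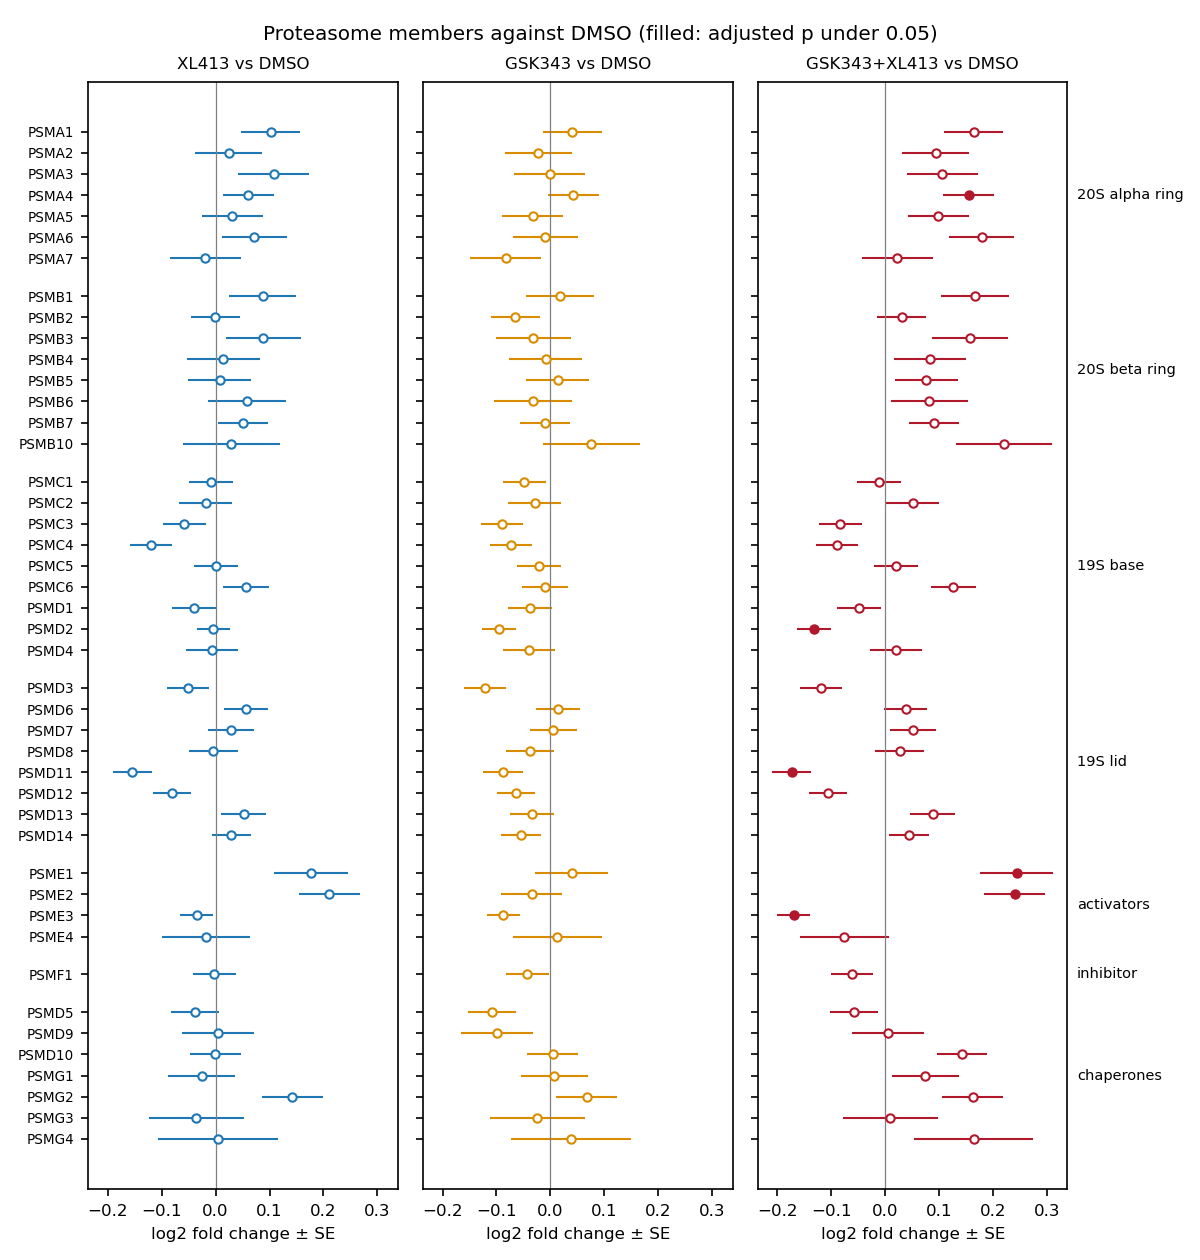
Log2 fold change against DMSO (x axis, bars are 1 SE) of the 44 tested proteasome genes, grouped by role, for XL413, GSK343 and both compounds. Filled points passed an adjusted p under 0.05: none for the single compounds, and PSME1, PSME2, PSMA4, PSME3, PSMD11 and PSMD2 for both.

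The 2 genes with the largest increase form 1 activator ring. PSME1 and PSME2 encode the alpha and beta subunits of the PA28 activator, and they are neighbours on chromosome 14, 4395 bases apart on opposite strands in GENCODE 29. PSME3 encodes the gamma subunit, which forms a nuclear activator of its own. Their promoters are shown because these activators moved in opposite directions; they are from RefSeq on GRCh38.p14, 250 bases before to 50 after the annotated start, read 5′ to 3′ on the strand of the gene. Capitals mark the core of the interferon-stimulated response element, a pair of GAAA blocks with any 2 bases between them, or, on the opposite strand, a pair of TTTC blocks with the same spacing. PSME1 is at chr14:24135944-24136243 (plus strand), PSME2 at chr14:24146561-24146860 (minus strand) and PSME3 at chr17:42833147-42833446 (plus strand).
PSME1 promoter: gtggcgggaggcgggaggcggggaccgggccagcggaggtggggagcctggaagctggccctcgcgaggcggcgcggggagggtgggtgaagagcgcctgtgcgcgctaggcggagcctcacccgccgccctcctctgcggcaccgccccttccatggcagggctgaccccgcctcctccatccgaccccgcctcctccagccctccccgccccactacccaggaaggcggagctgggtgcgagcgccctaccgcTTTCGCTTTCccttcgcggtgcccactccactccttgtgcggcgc
PSME2 promoter: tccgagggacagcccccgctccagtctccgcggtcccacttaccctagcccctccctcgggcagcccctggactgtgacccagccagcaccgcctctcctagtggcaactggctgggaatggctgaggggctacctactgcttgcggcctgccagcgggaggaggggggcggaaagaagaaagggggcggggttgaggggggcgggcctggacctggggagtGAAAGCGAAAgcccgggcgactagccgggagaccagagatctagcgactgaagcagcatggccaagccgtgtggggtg
PSME3 promoter: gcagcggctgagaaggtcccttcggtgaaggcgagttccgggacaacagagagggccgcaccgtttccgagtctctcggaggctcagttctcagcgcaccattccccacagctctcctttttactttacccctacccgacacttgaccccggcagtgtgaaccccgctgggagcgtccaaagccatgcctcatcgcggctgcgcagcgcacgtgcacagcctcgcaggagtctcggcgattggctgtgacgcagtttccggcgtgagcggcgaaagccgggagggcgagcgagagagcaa

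The core motif lay 28 to 19 bases before the start in PSME2 and at bases 5 to 14 after it, in the reverse orientation, in PSME1. PSME3 had no match, and neither had PSMD11. Counted per gene, with a match in any of its promoters, the motif was in 6 of the 40 proteasome genes with a RefSeq promoter (15%), namely PSMA4, PSMB4, PSMB10, PSME1, PSME2 and PSMG4, and in 4.38% of all 27305 genes with one (3.57% of the 35116 promoters). The other interferon motif searched, the gamma-interferon activated site TTCNNNGAA, was in 7 of the 40 genes (17.5%), namely PSME3, PSMD2, PSMD3, PSMC4, PSMA2, PSMB5 and PSMA8, and not in PSME1 or PSME2. It was in 9.38% of all genes (7.66% of promoters). The antioxidant response core TGACNNNGC was in 35% of the 40 genes and 16.1% of all genes (13.3% of promoters), and the box CCAAT in 47.5% and 39.7% (34.6% of promoters). All were searched on both strands. A match describes the letters only, and these motifs were picked after the expression values were known.

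PSME1 stood at 82.7, 80.8 and 80.4 CPM in DMSO, 88.1, 91.5 and 96.1 in XL413, 86.9, 85.2 and 78.6 in GSK343, and 89.4, 108 and 91.0 in the combination. All 6 libraries with XL413 lay above all 6 without it. PSME2 showed the same order, at 104, 99.2 and 101 CPM in DMSO, 112, 121 and 119.7 in XL413, 100.1, 103 and 94.1 in GSK343, and 115, 131 and 114 in the combination, again with no overlap between libraries with and without XL413. How many of all tested genes are split by XL413 in this way was not counted. With both compounds PSME1 rose against DMSO by 0.24 ± 0.07 (log2, SE; 1.18-fold; adjusted p = 0.031 by edgeR) and PSME2 by 0.24 ± 0.06 (1.18-fold; adjusted p = 0.0152). With XL413 alone the values were 0.18 ± 0.07 for PSME1 (adjusted p = 0.27) and 0.21 ± 0.06 for PSME2 (adjusted p = 0.128), neither called by edgeR. With GSK343 alone they were 0.04 ± 0.07 and -0.03 ± 0.06.

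Both calls were lost in some of the fits that left out 1 library. PSME1 lost its call without DMSO replicate 1, 2 or 3 (adjusted p = 0.0714, 0.104 and 0.0985), and PSME2 without DMSO replicate 2 or 3 (0.0737 and 0.0571), while the log2 fold changes stayed at 0.23 or above for PSME1 and 0.22 or above for PSME2. Without replicate 2 of the combination both remained called in the combination, PSME1 at 0.15 (adjusted p = 0.037) and PSME2 at 0.18 (adjusted p = 0.0138). In that same fit, whose shared estimate of the spread no longer included this library, XL413 alone was called too, with PSME1 at 0.18 (adjusted p = 0.0217) and PSME2 at 0.22 (adjusted p = 0.0068).

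PSME3 went the other way. It stood at 387, 383 and 384 CPM in DMSO, 373, 377 and 375 in XL413, 356, 366 and 365 in GSK343, and 346, 343 and 337 in the combination. The 4 groups did not overlap at any point, a separation seen in 1 of the 44 proteasome genes and in 0.55% of all tested genes. With both compounds PSME3 fell by 0.17 ± 0.03 against DMSO (1.13-fold lower; adjusted p = 0.00418), a call that held without any 1 of the 12 libraries, with adjusted p of at most 0.0209. For XL413 alone the change was -0.04 ± 0.03 (adjusted p = 0.652) and for GSK343 alone -0.09 ± 0.03 (adjusted p = 0.2). The level in the combination was below XL413 alone by -0.13 ± 0.03 on the log2 scale, which missed the threshold at adjusted p = 0.0607 and passed it without replicate 2 of the combination (adjusted p = 0.0195).

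PSME4 encodes PA200, a large nuclear activator with the longest transcript of the family, 7099 nucleotides. It ranged from 141 to 148 CPM in DMSO and stood at 145, 116 and 154 in the combination, where replicate 2 was the 1 library below DMSO; its change was -0.08 ± 0.08 (adjusted p = 0.573), and 0.04 without that library.

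**Figure D2:**
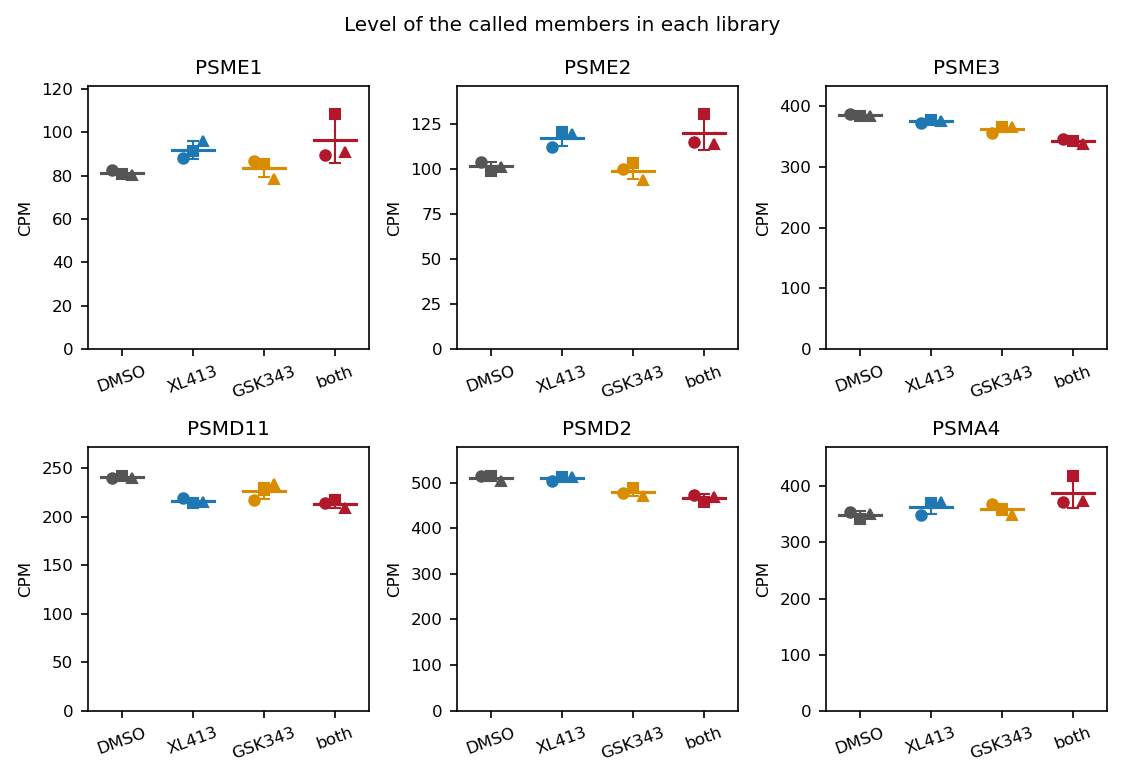
Normalised level (CPM, axes from 0) of the 6 genes called with both compounds, in each library (circle, square and triangle are replicates 1, 2 and 3; bars are the mean and SD of 3). PSME1 and PSME2 were higher in every library with XL413, PSME3 formed 4 separate levels, PSMD11 had its lowest means in the groups with XL413 and PSMD2 in those with GSK343.

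In the 20S core, all 15 tested genes had a log2 fold change above 0 with the combination, where 7906 of 15443 tested genes did, and their median was 0.10 against 0.01 for all genes. PSMA4, an alpha-ring subunit, was the 1 core gene called. It stood at 354, 342 and 352 CPM in DMSO, 349.8, 370.0 and 372 in XL413, 369, 359.6 and 349 in GSK343, and 373, 419 and 373 in the combination. The combination was above DMSO in every library, by 0.15 ± 0.05 (1.11-fold; adjusted p = 0.0474). That call was lost without any 1 of 10 libraries and kept only without replicate 1 or 3 of the combination; the adjusted p reached 0.172 without DMSO replicate 2 and was 0.0646 without replicate 2 of the combination.

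The positive values across the core rested mostly on 1 library. All 15 core genes had their highest value of the 12 libraries in replicate 2 of the combination, whose median deviation from the DMSO mean was 0.26 on the log2 scale, against 0.05 in replicate 1 and 0.02 in replicate 3. Without it, 11 of 15 were above 0 and the median was 0.03, within the spread of the DMSO libraries themselves, whose core medians ran from -0.02 to 0.05. The core genes are also the shortest of the role groups, with a median longest transcript of 1029 nucleotides.

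Individual core genes followed this pattern. PSMA7, the most abundant, was at 650.1, 764 and 619 CPM in the combination against 660.0 to 677 in DMSO, and PSMB4 at 603, 728 and 579 against 594 to 611. In both, replicate 2 lay above the DMSO range and replicates 1 and 3 within or below it, and the log2 fold changes of 0.02 ± 0.07 and 0.08 ± 0.07 turned to -0.07 and -0.02 without that library. PSMA1 and PSMB1 differed from these in that all 3 combination libraries were above DMSO, at 176, 203 and 177 against 160.3 to 173 CPM for PSMA1 and at 197, 236 and 204 against 184 to 197 for PSMB1; their changes were 0.16 ± 0.05 (adjusted p = 0.062) and 0.17 ± 0.06 (adjusted p = 0.0938). Without replicate 2 these were 0.10 (adjusted p = 0.103) and 0.09 (adjusted p = 0.211), and replicate 1 of the combination was at 197.4 CPM for PSMB1 where the highest DMSO library was at 197.1. The catalytic subunits PSMB5, PSMB6 and PSMB7, which carry the chymotrypsin-like, caspase-like and trypsin-like sites, had changes of 0.08 ± 0.06, 0.08 ± 0.07 and 0.09 ± 0.05, none called, and 0.01, -0.02 and 0.05 without replicate 2 of the combination.

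PSMB10, which takes the place of PSMB7 in the immunoproteasome, had 26.9, 24.6 and 22.4 CPM in DMSO, 26.0, 26.3 and 23.2 in XL413, 27.8, 26.7 and 23.4 in GSK343, and 27.7, 31.8 and 26.4 in the combination. DMSO replicate 1 lay inside the range of the combination. Its change of 0.22 ± 0.09 with both compounds was the largest of the core and was not called (adjusted p = 0.117). Without replicate 2 of the combination it was 0.14. PSMB8 and PSMB9, the other inducible subunits, which the naming rule leaves out, had 0.18 ± 0.06 (adjusted p = 0.0448, called) and 0.27 ± 0.09 (adjusted p = 0.0548) in the same comparison. Without that library they were at 0.13 (adjusted p = 0.0824) and 0.18 (adjusted p = 0.133), neither called.

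With XL413 alone, 13 of the 15 core genes were above 0 with a median of 0.05, and 0 had an unadjusted p under 0.05. With GSK343 alone, 5 were above 0 and the median was -0.01. PSMA7 had the smallest p of the alpha ring with GSK343, at -0.08 ± 0.07 (adjusted p = 0.628), and PSMB2 that of the beta ring, at -0.06 ± 0.05 (adjusted p = 0.574).

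**Figure D3:**
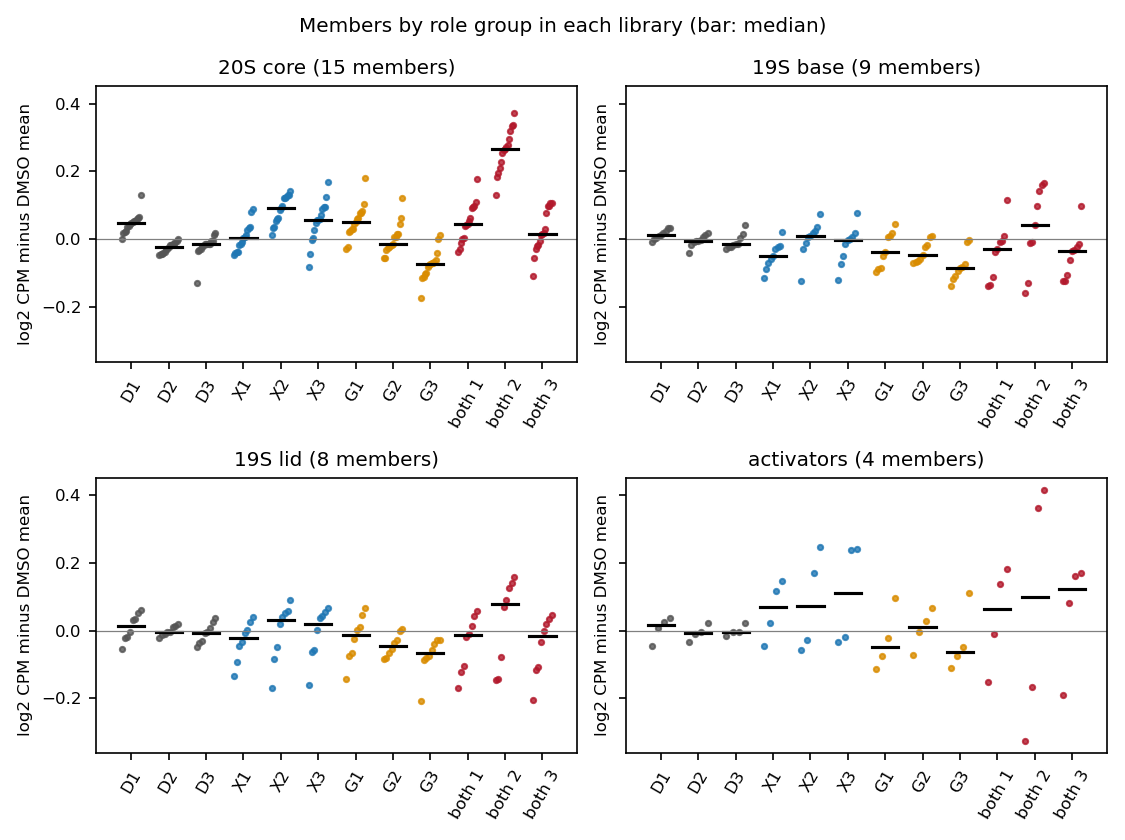
Log2 CPM minus the mean of the DMSO libraries (y axis) for every tested gene of 4 role groups in each of the 12 libraries (D, DMSO; X, XL413; G, GSK343; both, combination); black bars are medians. The core median is 0.26 in replicate 2 of the combination and 0.05 and 0.02 in replicates 1 and 3.

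The base of the 19S cap did not follow the core. Its median with the combination was -0.01, with 4 of 9 genes above 0 and 1 called. Without replicate 2 of the combination the median was -0.03, with 1 of 9 above 0. The base gene called with both compounds in the fit of all 12 libraries was PSMD2, the scaffold that receives ubiquitin-binding shuttle proteins. It stood at 516, 516 and 504 CPM in DMSO, 505, 513 and 512 in XL413, 478, 488 and 471 in GSK343, and 473, 458 and 469.8 in the combination. DMSO and XL413 overlapped throughout, and all 6 libraries with GSK343 lay below all 6 without it. The share of all tested genes with such a split was not counted. With both compounds PSMD2 fell by 0.13 ± 0.03 on the log2 scale (1.10-fold lower; adjusted p = 0.0152), and GSK343 alone gave -0.10 ± 0.03 (adjusted p = 0.17). The call with the combination was lost without DMSO replicate 1 or 2 (adjusted p = 0.0577 and 0.0603), and without replicate 2 of the combination GSK343 alone was called (-0.09; adjusted p = 0.0428).

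With GSK343 alone all 9 base genes had a log2 fold change below 0, with a median of -0.04, against 7661 of 15443 tested genes below 0. The base medians of the 3 GSK343 libraries ran from -0.09 to -0.04 and those of DMSO from -0.02 to 0.01, without overlap. The lid was similar, with 6 of 8 genes below 0 and a median of -0.05. Its medians were -0.066 to -0.012 in the GSK343 libraries and -0.006 to 0.013 in DMSO, also without overlap. Over the whole family 31 of 44 were below 0 with GSK343 and the 3 libraries lay wholly below the 3 DMSO libraries in 11 genes, or 25% of them, where 14.0% of all tested genes did so; none lay wholly above, where 11.2% of all genes did. The family median against the DMSO mean was 0.02 in GSK343 replicate 1, -0.02 in replicate 2 and -0.07 in replicate 3. In that order, 27, 15 and 4 of the 44 genes lay above the DMSO mean. Replicates 1 and 3 also deviated from their group with transcript length, with Spearman correlations across genes of -0.497 and 0.574.

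With XL413 alone the smallest p of the base belonged to PSMC4, one of the ATPases. It stood at 373, 363 and 357 CPM in DMSO and at 336, 334 and 335 in XL413, without overlap, a change of -0.12 ± 0.04 (adjusted p = 0.195). In GSK343 it was at 352, 349 and 338 and in the combination at 331, 362 and 335, where replicate 2 reached into the DMSO range. Without that library PSMC4 was called lower with XL413 (-0.11; adjusted p = 0.0253) and with both compounds (-0.13; adjusted p = 0.0107). PSMD4, the ubiquitin receptor, had 413, 466 and 404 CPM in the combination against 417 to 429 in DMSO, and its change of 0.02 ± 0.05 turned to -0.04 without replicate 2. RSEM assigned part of the reads of PSMD4, PSMB7 and PSMC5 by estimate, since their counts were not whole in 12, 12 and 11 libraries.

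In the lid, PSMD11 had the largest decrease of the family with both compounds. It encodes the subunit that clamps the lid to the rest of the complex. Its levels were 239, 242 and 239.6 CPM in DMSO, 219, 214 and 215 in XL413, 218, 227 and 234 in GSK343, and 214, 218 and 208 in the combination. The libraries of each treated group lay below all 3 of DMSO, and the XL413 and combination libraries overlapped. With both compounds it fell by 0.17 ± 0.04 (1.13-fold lower; adjusted p = 0.00899), and this held without any 1 of the 12 libraries, with adjusted p of at most 0.0413. With XL413 alone it was -0.15 ± 0.04 (adjusted p = 0.0869), and DESeq2 called it there (adjusted p = 0.0173), as did edgeR without replicate 2 of the combination (adjusted p = 0.0139). With GSK343 alone it was -0.09 ± 0.04 (adjusted p = 0.281).

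PSMD3, another lid subunit, had the smallest p of the lid with GSK343. It stood at 323, 327 and 333 CPM in DMSO, 317, 316 and 315 in XL413, 311, 309 and 283 in GSK343, and 305, 296 and 304 in the combination, each treated group wholly below DMSO. The changes were -0.12 ± 0.04 with GSK343 (adjusted p = 0.165) and -0.12 ± 0.04 with both (adjusted p = 0.0583), and GSK343 was called without replicate 2 of the combination (adjusted p = 0.0481). PSMD12, also of the lid, had the same sign, at -0.11 ± 0.04 with both compounds (adjusted p = 0.0607), with 177, 182 and 178 CPM in the combination below 185 to 198 in DMSO. The other 5 of the 8 lid genes were above 0 with the combination, among them PSMD7 at 0.05 ± 0.04 (adjusted p = 0.453), and the group median was 0.03. Without replicate 2 of the combination 4 of 8 were above 0, the median was -0.01 and PSMD7 was at 0.01.

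PSMF1, an inhibitor of the isolated core, was at 119 to 124 CPM in DMSO and 115 to 121 in the combination (-0.06 ± 0.04; adjusted p = 0.315). Of the 7 chaperones 0 were called in any of these comparisons, and 6 of 7 had their highest value in replicate 2 of the combination. PSMG2, which with PSMG1 starts the alpha ring, had the smallest p among them with XL413, at 0.14 ± 0.06 (adjusted p = 0.289), and reached 0.16 ± 0.06 with both compounds (adjusted p = 0.074), or 0.12 without replicate 2 of the combination. PSMD10, which holds PSMC4 during assembly of the base, was at 66.9, 68.1 and 65.5 CPM in DMSO and 71.0, 79.1 and 71.2 in the combination, wholly above, a change of 0.14 ± 0.05 (adjusted p = 0.0598), or 0.09 without that replicate. PSMD5, another chaperone of the base, had -0.11 ± 0.04 with GSK343 (adjusted p = 0.277).

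Across all 44 genes, those whose 3 combination libraries lay wholly above DMSO numbered 9 and wholly below 5, against 16.3% and 17.4% of all tested genes. With XL413 alone these were 5 and 7, against 11.9% and 16.2%. The members wholly above DMSO with XL413 were 2 core genes, 2 activators and 1 chaperone, and those wholly below were 3 of the base, 3 of the lid and PSME3.

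The combination was also set against each compound alone. Against GSK343, 1 gene was called higher, PSME2 at 0.27 ± 0.06 (1.21-fold; adjusted p = 0.0398), and 0 lower, where 0.648% and 0.337% of all tested genes were called; the call was lost without any 1 library apart from replicates 2 and 3 of the combination, with an adjusted p of up to 0.209 without GSK343 replicate 3. In the comparison with GSK343, 15 of the 44 genes had an unadjusted p under 0.05 by edgeR (34.1%, against 20.4% of all tested genes). Against XL413, 0 were called in either direction, where 0.557% and 0.227% of all genes were, with 3 genes at an unadjusted p under 0.05 (6.82%, against 15% of all genes) and 2 called lower by DESeq2, PSMD2 and PSME3, where it called 1.09% of all genes lower. The interaction, which asks whether GSK343 acts differently with XL413 present, was called in 0 of 44 genes and in 0.0% of all genes by edgeR; 0 of the 44 had an unadjusted p under 0.05, against 2.67% of all genes, and DESeq2 called 0. Its 95% intervals over the 44 genes lay between -0.34 and 0.48 on the log2 scale. For the 6 genes called with both compounds they ran from -0.15 to 0.05 for PSME3, -0.05 to 0.19 for PSMD11, -0.13 to 0.07 for PSMD2, -0.10 to 0.21 for PSMA4, -0.12 to 0.25 for PSME2 and -0.19 to 0.25 for PSME1.

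Changes across the family were correlated with transcript length. Over the 44 genes, the log2 fold change with both compounds had a Pearson correlation of -0.51 with the log2 length of the longest transcript, and -0.32 without replicate 2 of the combination; with XL413 alone it was -0.45 and with GSK343 alone -0.25. These are descriptions across genes, which share the same libraries. When each library was corrected for GC content and length, the correlation with both compounds was 0.12. The median of the core went from 0.10 to -0.01 with 5 of 15 above 0. The base and lid medians went to -0.07 and -0.07. The correction was fitted to each library's deviation from the mean of all 12 libraries. It therefore also removes any treatment effect that runs with GC content or length. With that correction 9 genes were called lower (PSMA3, PSMA7, PSMC3, PSMC4, PSMD2, PSMD3, PSMD11, PSMD12 and PSME3), where 10.0% of all tested genes were, and 2 higher, PSME1 and PSME2, where 8.13% were.

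Of the 6 genes called with both compounds, 5 kept their sign and their call under the correction. The corrected values with both compounds were 0.13 for PSME1 (adjusted p = 0.0228), 0.18 for PSME2 (adjusted p = 0.00185), -0.16 for PSME3 (adjusted p = 0.000875), -0.15 for PSMD11 (adjusted p = 0.0176) and -0.08 for PSMD2 (adjusted p = 0.0203). PSMA4 was at 0.16 and no longer called (adjusted p = 0.0688). The correction used the longest transcript of each gene, which for PSMA4 has 4411 nucleotides, while its median protein-coding transcript has 944.

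**Figure D4:**
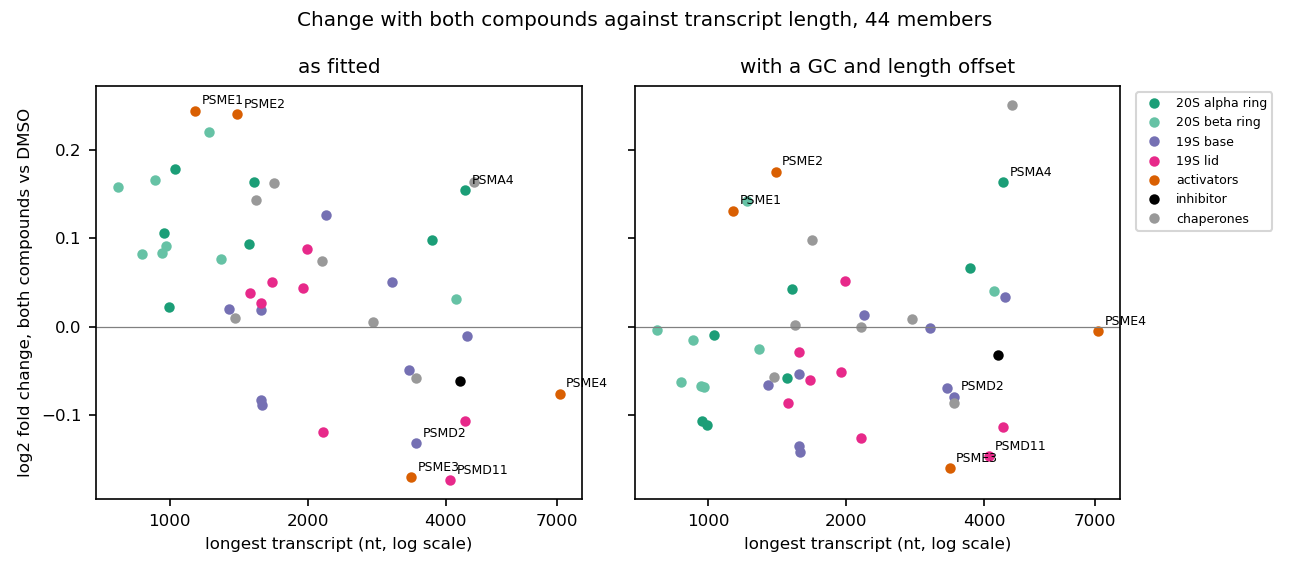
Log2 fold change with both compounds against DMSO (y axis) and length of the longest transcript (x axis, log scale) for the 44 tested genes, colored by role, as fitted (left) and with each library corrected for GC content and length (right). The Pearson correlation goes from -0.51 to 0.12, while PSME1 and PSME2 stay above 0 and PSME3, PSMD11 and PSMD2 below.

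Around the proteasome, 31 further genes of the ubiquitin pathway and of proteasome control are counted here and all 31 were tested. With both compounds 2 rose and 3 fell, beside the shares of 6.69% and 7.25% of all genes. The genes that rose were PSMB8 and RPS27A, a ribosomal protein fused to ubiquitin (0.34 ± 0.08; adjusted p = 0.014). Those that fell were the shuttle protein UBQLN4 (-0.16 ± 0.04; adjusted p = 0.0155), the unfolding ATPase VCP (-0.11 ± 0.03; adjusted p = 0.0279) and the ubiquitin-activating enzyme UBA1 (-0.13 ± 0.04; adjusted p = 0.0419). Without replicate 2 of the combination PSMB8 was not called, RPS27A was at 0.26 (adjusted p = 0.0161), UBQLN4 at -0.12 (adjusted p = 0.0165), VCP at -0.10 (adjusted p = 0.022) and UBA1 at -0.08 (adjusted p = 0.0497), and ADRM1 was called as well.

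UBQLN4, which carries tagged proteins to the cap, stood at 129, 128 and 129 CPM in DMSO, 127, 124 and 127 in XL413, 118, 122 and 121 in GSK343, and 117, 111 and 118 in the combination. Every treated library lay below all 3 of DMSO, narrowly so with XL413, at 127.4 CPM or less against 127.8 or more. The change with XL413 alone was -0.03 ± 0.04 (adjusted p = 0.812 by edgeR). PSMD11 and PSMD3 had the same order, and the share of all tested genes with it was not counted. With XL413 alone 0 of 31 were called and 4 had an unadjusted p under 0.05 in the same edgeR test (12.9%, against 13.7% of all tested genes). With GSK343 alone 0 of 31 were called, 7 had an unadjusted p under 0.05 (22.6%, against 14.3% of all tested genes), and 24 were below 0 (77.4%, against 49.6%).

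NFE2L1, the transcription factor that raises proteasome genes when proteasome activity drops, was at 278 to 284 CPM in DMSO and at 273, 212 and 270.2 in the combination, a change of -0.16 ± 0.07 (adjusted p = 0.146) with replicate 2 far below the other libraries; without it the change was -0.05. The core maturation factor POMP had 0.12 ± 0.07 (adjusted p = 0.241), the cap's ubiquitin receptor ADRM1 -0.11 ± 0.05 (adjusted p = 0.138) and the small lid subunit SEM1 0.20 ± 0.08 (adjusted p = 0.101) with both compounds; none was called. Without replicate 2 of the combination they were at 0.03, -0.16 (adjusted p = 0.0107) and 0.14, so that ADRM1 alone of these was called.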

How the data were processed

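The authors deposited 1 table of RSEM expected counts per gene for the 12 libraries; per the submitters' processing notes the tools were Bowtie2 2.1.0 and RSEM 1.2.15, with the build hg38. The annotation and strand setting were not given in the sources used here. Reads shared by several genes are split by RSEM, so 10.5 to 11.1% of a library's values are not whole.

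Rounded counts were fitted with edgeR 4.0.16 (R 4.3.3) after TMM scaling, in a quasi-likelihood model without a replicate term that used all 12 libraries. A filter, filterByExpr with a minimum count of 10 and total of 15, kept 15443 genes and removed 11032. P-values were two-sided and adjusted by Benjamini and Hochberg's method across every tested gene. Each SE was derived from the fold change and its F statistic. CPM are relative to the TMM-scaled library. Transcript lengths and GC content came from GENCODE 29 by symbol, and promoters from RefSeq, where 7 of the genes have more than 1. The fit was tested on simulated data.

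The family and the role and pathway lists were chosen with earlier results of these data known. Genes named are those called, those with the highest level per kb or smallest p of each role group, pathway genes with the smallest p, and a preset few; PSMA3, PSMA5, PSMB5, PSMB6, PSMB7, PSMC3, PSMC5, PSMC6, PSMD12, PSME4, UBA1 and VCP were named after their values were seen. One gene of the pathway list and one of the marker list are not reported here and are left out of the counts. Alternatives were other scaling (RLE, upper quartile), other filters (none, or 5 CPM in 3 libraries), DESeq2 1.42.0, limma-voom (limma 3.58.1), only the compared groups, a replicate block, an offset for GC content and length (mgcv 1.9.3), and leaving out each library.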

Additional observations from a re-analysis of the deposited data

How the results depend on the processing

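The call counts of the family moved with most settings. With both compounds against DMSO (3 higher, 3 lower) the counts were 8 higher with upper quartile scaling, 8 higher with the filter at 5 CPM, 5 higher and 5 lower with DESeq2, 0 higher and 1 lower with only the compared groups, and 9 lower with the GC and length offset. Over all genes, upper quartile scaling called 1367 of 15443 higher with both compounds, and the 5 CPM filter 1159 of 11100. DESeq2 called 1037 higher and 1326 lower of 15443, and the offset 1549 lower. With only the compared groups 333 of 15046 were higher and 324 lower. Leaving out 1 library gave 0 to 7 higher and 2 to 6 lower, with 6 lower without replicate 2 of the combination. For XL413 (0 and 0) they were 1 higher and 1 lower with DESeq2, 4 and 2 with only the compared groups, 1 and 2 with the offset, and 0 to 2 in each direction leaving out 1 library. The offset called 255 higher and 322 lower of 15443 tested genes with XL413. For GSK343, 0 to 2 were lower leaving out 1 library. For the combination against XL413, 1 was lower with RLE or the 5 CPM filter, 2 with DESeq2 and 3 with the offset. Between 0 and 2 were lower leaving out 1 library. Of all tested genes, 55 were lower there with RLE, 53 of 11100 with the 5 CPM filter, 168 with DESeq2 and 201 with the offset. Against GSK343, 0 were higher with only the compared groups, as were 0 of 15157 tested genes. Leaving out 1 library gave 0 to 1 higher. PSMD11 (adjusted p = 0.0506), PSME1 (0.107), PSME2 (0.0698), PSMD2 (0.085) and PSMA4 (0.143) were not called with only the compared groups, and PSMD2 not with upper quartile scaling (0.058). The cause was not tested.

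With the offset, role medians became -0.0010 (core) and -0.016 (lid) for XL413, and -0.066 (base) and -0.073 (lid) for both compounds, and PSMA7 (-0.11), PSMB4 (-0.067), PSMD4 (-0.066) and PSMD7 (-0.060) changed sign with both. The activator median with both was 0.12 with upper quartile scaling. The offset without replicate 2 of the combination, chosen after seeing the data, gave 2 higher and 4 lower for XL413, with medians of -0.00075 (core) and -0.016 (lid), 9 lower for GSK343, 13 lower for both, with medians of -0.041 (core) and -0.061 (lid), 3 lower against XL413 and 2 lower against GSK343; PSMA7, PSMB4, PSMD4 and PSMD7 were then at -0.14, -0.11, -0.078 and -0.067. For that fit the share of all tested genes called is not given here, so its counts say nothing about the family in particular. Leaving out 1 library, PSMA7 ran from -0.068 to 0.080, PSMB4 from -0.021 to 0.14 and PSMD4 from -0.041 to 0.055 with both compounds, and PSMA7 from -0.039 to 0.0016 with XL413.

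Over all genes, upper quartile scaling gave 1367 higher and 778 lower calls with both compounds against 1033 and 1119, 136 and 31 against 112 and 68 with GSK343, and 43 and 14 against 43 and 23 with XL413. DESeq2 gave 169 and 169 with GSK343 and 124 and 121 with XL413, and only the compared groups 680 and 714 with XL413 and 333 and 324 with both. Libraries of the same replicate number correlated at -0.407 to 0.441, and those of different numbers at -0.421 to 0.355. Of 12 libraries, 6 correlated best with one of their own number. These values do not settle whether the replicate numbers pair the libraries. With the replicate block in edgeR the combination had 3 higher and 3 lower. PSMA4 was then not called (adjusted p = 0.0603) and PSMB10 was called in its place (0.22, adjusted p = 0.0358).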
